A study of Mus musculus with 6 samples.

Results

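NF-kB transcription factors, IkB proteins and the ubiquitin-editing enzyme that limits the pathway are described here by 10 genes. These are the Rel subunits Rela, Relb, Rel, Nfkb1 and Nfkb2, and Nfkbia, Nfkbib, Nfkbie, Bcl3 and Tnfaip3, grouped here under the name inhibitors. They were chosen by name, and each was found as a single locus in a table of raw fragment counts for 51499 loci. All 10 were among the 13867 loci that passed a filter on low counts, and none shared its locus with another gene. RNA sequencing had been carried out on SV40 immortalized mouse embryonic fibroblasts (MEFs) of 2 genotypes, with 3 samples of each. By the study's account the samples of a genotype were separate cultures, so p-values measure the spread between cultures and not between clones. The WT cells carried floxed but intact Yme1l alleles (Yme1l fl/fl), and the Yme1l-/- cells had lost Yme1l, which encodes a protease of the inner mitochondrial membrane. Both had been grown from single clones after cells from floxed animals were transduced with Cre recombinase, so a difference between genotypes and a difference between clones cannot be told apart. How many clones each genotype stands for is not given in the sources used here. The study examined whether innate immune signalling is switched on without YME1L, and the comparison of these genes asks whether transcripts of the NF-kB system differ between the genotypes.

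In resting cells, NF-kB dimers are held in the cytosol by IkB proteins, whose ankyrin repeats cover the nuclear localization signal of the Rel subunits. In the canonical branch, the IKK complex phosphorylates IkB alpha, IkB beta and IkB epsilon (encoded by Nfkbia, Nfkbib and Nfkbie), they are degraded, and dimers of RelA or c-Rel enter the nucleus. In the non-canonical branch, the kinase NIK drives processing of the Nfkb2 precursor into the subunit that pairs with RelB. Several of the genes are themselves transcribed in response to NF-kB and act as feedback, the best known being Nfkbia and Tnfaip3. The precursor and the mature subunit made from Nfkb1 or Nfkb2 come from the same transcript, so transcript counts do not tell them apart.

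The libraries held 33180867 to 34012520 counted fragments in WT and 34624075 to 49351107 in Yme1l-/-. Yme1l1, the symbol of the targeted gene in the table, fell from 188.7 ± 5.16 to 39.1 ± 1.34 CPM (fragments per 1000000 of the scaled library, mean ± SD, n = 3), in the direction of the labels. Of 8 fibroblast markers, 7 were tested, of which 1 was called higher and 6 lower in Yme1l-/- (adjusted p under 0.05, edgeR), where 33.6% and 34.1% of all loci were. Their summed level was 10897 to 11449 CPM in WT and 6653 to 7138 CPM in Yme1l-/-. Markers of macrophages, cells rich in NF-kB inhibitors, summed to 4.17 to 4.52 CPM in WT and 7.38 to 8.01 CPM in Yme1l-/-. Of the 8 macrophage markers, 2 passed the filter and both were called higher: Cd68, from 1.77 to 3.62 CPM, and Cd14, from 2.37 to 3.07 CPM. Below the filter, Lyz2 had 0 to 2 fragments in WT and 8 to 12 in Yme1l-/-, Csf1r 2 to 5 and 11 to 20, and Itgam 2 to 4 and 9 to 29. No library held more than 1 fragment of Ptprc, the pan-leukocyte marker, and Adgre1 and Tyrobp were at 0 in all libraries. Endothelial markers summed to 0.888 to 1.44 CPM in WT and 1.67 to 2.00 CPM in Yme1l-/-. Epithelial markers summed to 33.1 to 35.1 CPM in WT and 0.334 to 0.657 CPM in Yme1l-/-, a difference carried by Krt18, with 1012 to 1086 fragments in WT and at most 3 in Yme1l-/-. The part of these marker differences in the results was not tested.

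The promoters of the members are shown first, because most of them carried the sequence that NF-kB dimers bind. The RefSeq-based table for GRCm38.p6 held promoter windows, from 250 bases before to 50 bases after a transcription start, for 8 of the 10 members. These were Rela, Rel, Nfkb2, Nfkbia, Nfkbib, Nfkbie, Bcl3 and Tnfaip3. The kB consensus, a pattern of 10 letters searched on both strands, was present for 6 of these 8 genes, against 9.55% of the 27025 genes in the table. Counted by window, 8.46% of 32851 windows held it. Matches of the nearly symmetric pattern on both strands overlap and were merged. For comparison, the core of the interferon-stimulated response element, searched on both strands, was present for 0 of the 8 genes and for 3.99% of all genes. The stretch from 130 bases before to 20 bases after the first listed start is given for the 6 genes with a match. Each is written 5′ to 3′ in the direction of the gene, with the letters that belong to a kB match in capitals.
Nfkb2: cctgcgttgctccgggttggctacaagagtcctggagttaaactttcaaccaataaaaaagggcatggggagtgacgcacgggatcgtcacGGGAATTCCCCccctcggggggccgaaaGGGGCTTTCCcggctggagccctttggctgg
Rel: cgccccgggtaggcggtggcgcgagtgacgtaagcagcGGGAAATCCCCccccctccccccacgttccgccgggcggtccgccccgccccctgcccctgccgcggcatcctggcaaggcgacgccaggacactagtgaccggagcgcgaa
Nfkbia: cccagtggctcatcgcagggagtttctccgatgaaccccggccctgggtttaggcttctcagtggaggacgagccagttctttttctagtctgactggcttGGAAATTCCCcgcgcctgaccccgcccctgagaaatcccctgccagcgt
Nfkbie: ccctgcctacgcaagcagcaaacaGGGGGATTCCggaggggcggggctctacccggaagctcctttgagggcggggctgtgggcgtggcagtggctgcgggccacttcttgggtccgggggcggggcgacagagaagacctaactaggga
Bcl3: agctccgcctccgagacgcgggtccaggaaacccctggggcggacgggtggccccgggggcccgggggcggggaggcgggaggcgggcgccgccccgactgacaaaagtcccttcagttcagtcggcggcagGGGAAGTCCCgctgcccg
Tnfaip3: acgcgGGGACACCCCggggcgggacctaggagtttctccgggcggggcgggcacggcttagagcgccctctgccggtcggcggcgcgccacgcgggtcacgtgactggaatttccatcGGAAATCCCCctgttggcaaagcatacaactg

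These stretches lie at chr19:46304607-46304756 on the plus strand (Nfkb2), chr11:23770950-23771099 on the minus strand (Rel), chr12:55492628-55492777 on the minus strand (Nfkbia), chr17:45555570-45555719 on the plus strand (Nfkbie), chr7:19822736-19822885 on the minus strand (Bcl3) and chr10:19015391-19015540 on the minus strand (Tnfaip3). Nfkb2 held 2 separate matches before this start, at positions -39 to -29 and -11 to -2. The windows of its other 2 listed starts overlap and share a match, at 11 to 20 from the earlier start and -225 to -216 from the later. The earlier of these windows held a further match, at -236 to -227. Nfkbia had its match at -29 to -20, Rel at -92 to -82 and Nfkbie at -106 to -97. In Tnfaip3 the matches were at -125 to -116 and at -12 to -3, and the window of its other listed start had none. In Bcl3 the match followed the start, at 3 to 12. The windows of Rela and Nfkbib held no match. A match describes the letters of the window and does not show that a factor binds there.

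Transcripts of the NF-kB system were higher in Yme1l-/- MEFs for most members, with Nfkbie, Bcl3 and Nfkb2 in front. A locus was called when its Benjamini-Hochberg adjusted p, over all loci, was under 0.05 in the quasi-likelihood test of edgeR. In either direction 9 of the 10 members were called, where 67.7% of all loci tested were. Of the members, 8 were called higher, where the share over all loci was 33.6%. A single member, Nfkb1, was called lower, where the share was 34.1% of all loci, and Rela was not called. The genotypes did not overlap for any of the 10 members, against 71.9% of all loci. Yme1l-/- was the upper group for 9 members and the lower group for 1, against 35.9% and 36.0% of all loci. With the median of each chromosome removed, 7 members were called, where 62.8% of all loci were. All 7 were called higher and 0 lower, with shares over all loci of 31.1% and 31.7%. The median log2 fold change (Yme1l-/- over WT) of the members was 0.59, and that of all loci tested was -0.00. The order of the members depended on the fit. With chromosome medians removed, Nfkbia at 0.906 and Relb at 0.727 lay above Nfkb2 at 0.718. At least 2-fold higher and called were Nfkbie and Bcl3, which makes 2 of 10, and 9.1% of all loci met this rule. As in any bulk sample, fewer cells with a transcript and less transcript per cell cannot be told apart.

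**Figure D1:**
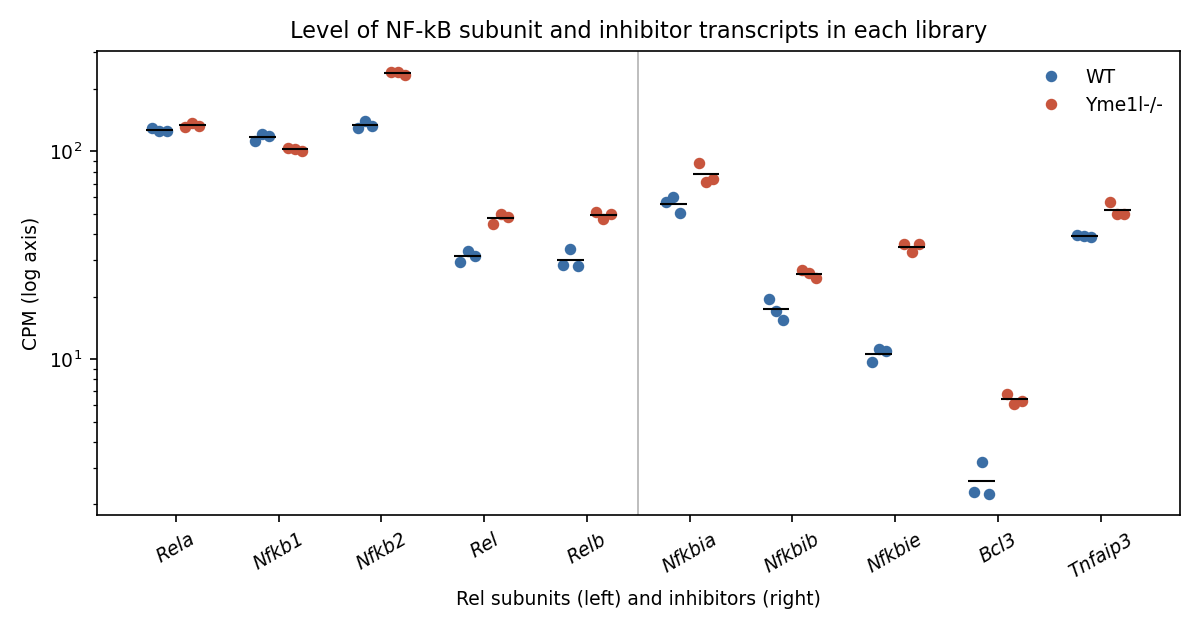
Level of each member in CPM, on a log axis, in the 3 WT (blue) and 3 Yme1l-/- (red) libraries, with a black line at the mean of each genotype. The genotypes are apart for all 10 genes, with Yme1l-/- above WT for 9 of them and below for Nfkb1, and Rela shows the narrowest gap.

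Among the subunits, the precursor genes of both branches moved apart. Nfkb2 (ENSMUSG00000025225, mm10 chr19:46304320-46312385), whose product partners RelB in the non-canonical branch, was measured at 129, 139.8 and 132 CPM in the WT libraries and at 240.5, 242 and 232 CPM in the Yme1l-/- libraries. All Yme1l-/- libraries were far above the WT libraries, and the spread within a genotype was small. Nfkb2 rose by a log2 fold change of 0.83 ± 0.04 (SE), or 1.78-fold (edgeR adjusted p = 2.7e-08). Its exons overlap those of Psd on the other strand, a locus with 50 to 71 fragments in WT and 258 to 402 in Yme1l-/-, while Nfkb2 had 4280 to 4576 and 8416 to 12182. Nfkb1 (ENSMUSG00000028163, chr3:135584655-135691547), which gives the canonical partner of RelA, was measured at 113, 121 and 118 CPM in WT and at 103, 103 and 101 CPM in Yme1l-/-. The lowest WT library was above the highest Yme1l-/- library. Nfkb1 fell by 0.20 ± 0.05 (SE) on the log2 scale (edgeR adjusted p = 0.0024). Loci of its chromosome had a median of -0.12, and with the median of each chromosome removed Nfkb1 was at -0.08 and was no longer called (edgeR adjusted p = 0.169).

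Relb and Rel rose and Rela did not pass the test. Relb (ENSMUSG00000002983, chr7:19606217-19629438), the transactivating subunit of the non-canonical branch, was measured at 28.4, 33.9 and 28.1 CPM in WT and at 51.2, 47.5 and 50.1 CPM in Yme1l-/-. Relb rose by 0.72 ± 0.07 (log2 fold change ± SE, edgeR adjusted p = 5.0e-06). Rel (ENSMUSG00000020275, chr11:23736847-23770970), which encodes c-Rel, a subunit best known from lymphoid cells, was measured at 29.2, 33.3 and 31.5 CPM in WT and at 44.8, 49.8 and 48.2 CPM in Yme1l-/-. The groups did not overlap for either gene. Rel had a log2 fold change of 0.60 ± 0.06 (SE, edgeR adjusted p = 5.8e-06), on a chromosome with a median of 0.36, and it was called higher at 0.25 with chromosome medians removed (edgeR adjusted p = 0.0049). Rela (ENSMUSG00000024927, chr19:5637483-5648130), which encodes the main transactivating subunit of the canonical branch, was measured at 129, 125 and 126 CPM in WT and at 132, 137 and 132 CPM in Yme1l-/-. Its log2 fold change was 0.08 ± 0.04 (SE, edgeR adjusted p = 0.137). It was called higher at 0.14 under upper-quartile scaling (edgeR adjusted p = 0.014), where the median of all loci was 0.055. With chromosome medians removed it was at -0.039.

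Transcripts of all 5 inhibitors were called higher in Yme1l-/-, where 33.6% of all loci were. That of Tnfaip3 was no longer called with chromosome medians removed, where 31.1% of all loci were called higher. Nfkbie (ENSMUSG00000023947, chr17:45555703-45563169), which encodes IkB epsilon, was measured at 9.64, 11.2 and 10.99 CPM in WT and at 35.9, 32.7 and 35.9 CPM in Yme1l-/-. Every Yme1l-/- library was well above every WT library, and 95.3% of all loci tested had a lower log2 fold change. Nfkbie rose by 1.72 ± 0.07 (log2 fold change ± SE), or 3.28-fold (edgeR adjusted p = 5.3e-09). Bcl3 (ENSMUSG00000053175, chr7:19808462-19822770), a nuclear IkB protein that binds dimers of the mature Nfkb1 and Nfkb2 subunits on DNA, had the lowest level of the 10 members. Its fragments numbered 76, 105 and 73 in WT against 238, 308 and 321 in Yme1l-/-, or 2.58 ± 0.544 and 6.40 ± 0.358 CPM (SD, n = 3). Bcl3 rose by 1.31 ± 0.15 (log2 fold change ± SE, edgeR adjusted p = 1.3e-05), and values ran from 1.21 to 1.49 over 14 alternative fits. Both genes carry a kB match in the stretches printed above. So do Nfkbia and Tnfaip3, which rose by less than Nfkbib, whose window held no match. The part of the matches in these changes was not tested.

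The feedback inhibitors Nfkbia and Tnfaip3 rose by less. Nfkbia (ENSMUSG00000021025, chr12:55489410-55492647), which encodes IkB alpha, was measured at 57.1, 60.2 and 50.8 CPM in WT and at 87.9, 71.5 and 73.3 CPM in Yme1l-/-. The groups did not overlap, and Yme1l-/- replicate 1 was the highest library. Nfkbia rose by 0.47 ± 0.09 (log2 fold change ± SE, edgeR adjusted p = 0.00089). The median over chromosome 12, where Nfkbia lies, was -0.44, the lowest of 20 chromosomes, and with chromosome medians removed its log2 fold change was 0.91. Tnfaip3 (ENSMUSG00000019850, chr10:19000910-19015657), which encodes A20, an enzyme that edits ubiquitin chains upstream of IKK, was measured at 39.6, 39.1 and 38.9 CPM in WT and at 56.9, 50.1 and 49.7 CPM in Yme1l-/-. Its log2 fold change was 0.41 ± 0.06 (SE, edgeR adjusted p = 8.0e-05), on a chromosome with a median of 0.30. With chromosome medians removed, Tnfaip3 was at 0.11 and was not called (edgeR adjusted p = 0.114).

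Nfkbib (ENSMUSG00000030595, chr7:28758251-28767512), which encodes IkB beta, an inhibitor that is less responsive to NF-kB than IkB alpha, was measured at 19.5, 17.0 and 15.5 CPM in WT and at 26.7, 25.9 and 24.7 CPM in Yme1l-/-. It rose by 0.57 ± 0.08 (log2 fold change ± SE, edgeR adjusted p = 8.6e-05). Its exons overlap those of Sirt2 on the other strand. Sirt2 had 1384 to 1417 fragments in WT and 1753 to 2597 in Yme1l-/-, against 506 to 645 and 936 to 1306 for Nfkbib, and a log2 fold change of 0.22 ± 0.05 (SE). The libraries were made with a stranded kit, but whether counting used the strand is not given in the sources used here. The exchange of fragments between both loci was not tested.

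**Figure D2:**
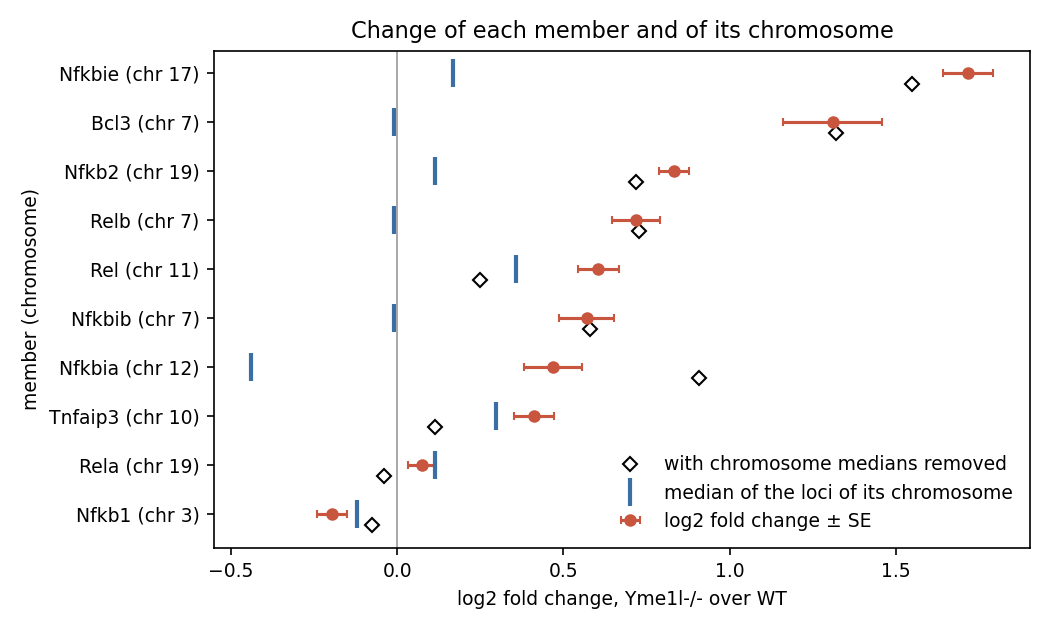
Log2 fold change of each member (red, error bars are SE, 3 libraries per genotype), the median log2 fold change of the loci of its chromosome (blue bars) and the value with chromosome medians removed (open diamonds). Nfkbia stands at 0.47 on a chromosome with a median of -0.44, whereas the values of Rel and Tnfaip3 shrink from 0.60 to 0.25 and from 0.41 to 0.11.

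Since whole chromosomes differed between the genotypes, the loci around each member were examined, within 500 kb of its start. This window was chosen after the values were seen. Counts of called neighbours stand beside 33.6% of all loci called higher and 34.1% called lower. Near Nfkbia, 10 loci were tested, of which 0 were called higher and 6 lower, with a median log2 fold change of -0.33 and a highest value of -0.19, so that Nfkbia lay above each of them. Near Nfkbie, 3 of 12 loci were called higher and 3 lower, the median was -0.00, and 1 locus, the adjacent Tmem151b at 1.74, was above Nfkbie. Near Nfkb2, 9 of 19 loci were called higher and 2 lower, the median was 0.17, and 2 were above it, Psd at 2.05 and Elovl3 at 1.87. Near Rel, 4 of 6 loci were called higher and 1 lower, with a median of 0.43, and Rel at 0.60 was near the upper end of their range. Near Tnfaip3, both tested loci, Perp at 1.09 and Hebp2 at 2.40, were called higher and lay above it. Near Nfkb1, 5 of 8 loci were called lower and 1 higher, with a median of -0.39. Around Rela, 21 of 45 loci were called higher and 7 lower, with a median of 0.12. Around Nfkbib, 9 of 29 were called higher and 9 lower, with a median of 0.07.

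Bcl3 and Relb are neighbours on chromosome 7, with starts 193 kb apart. Within 500 kb of Bcl3, 22 loci were tested, 8 of them called higher and 6 lower, with a median of 0.13. The loci nearest to it in the direction of Relb, Bcam at 2.21 and Nectin2 at 1.46, both encode cell adhesion molecules and were called higher. For Relb the median of 29 loci was 0.09, with 8 called higher and 9 called lower, and 4 were above it. The counts around both members were thus near the shares over all loci.

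**Figure D3:**
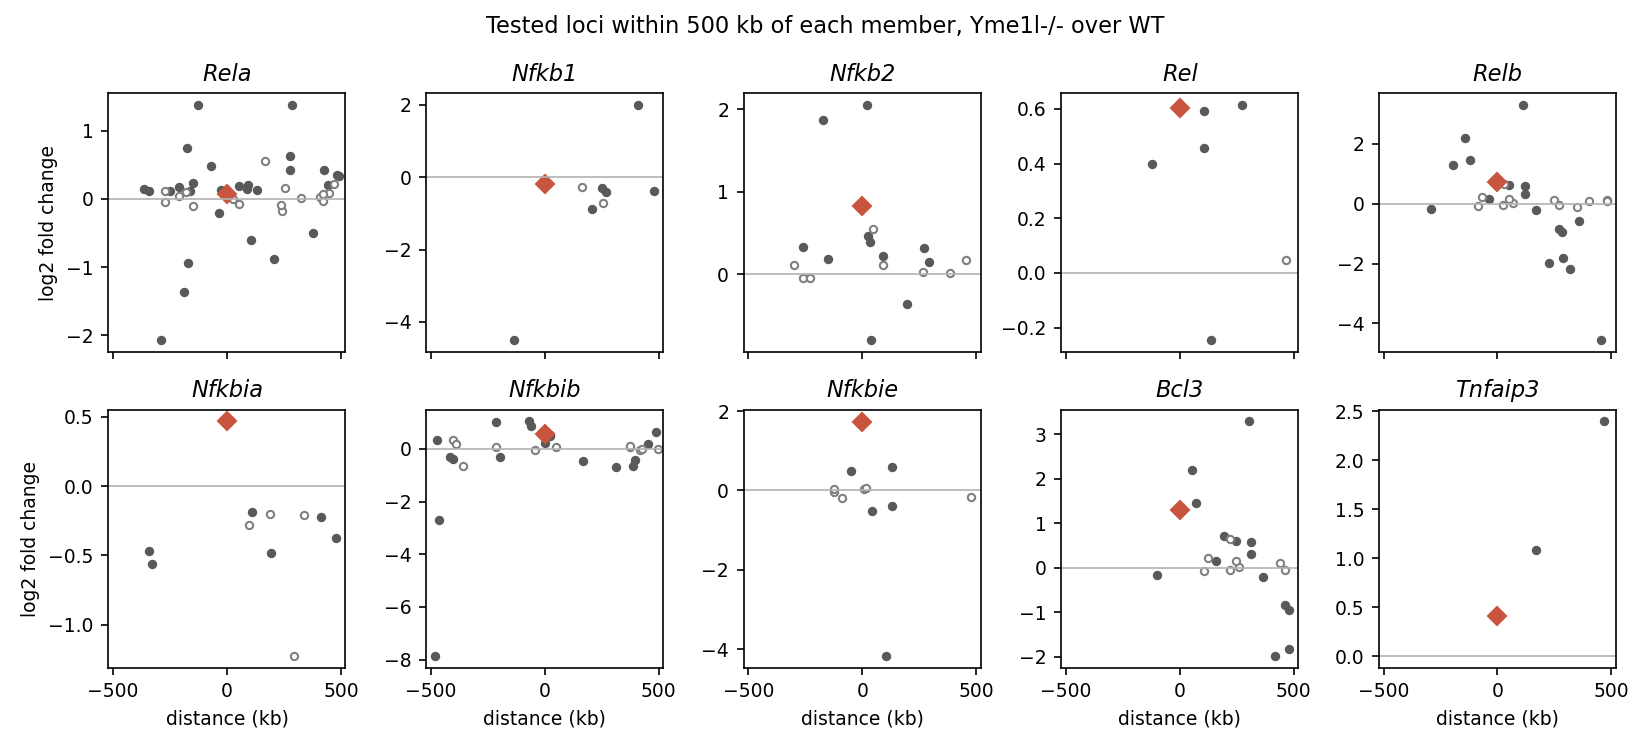
Log2 fold change (Yme1l-/- over WT) of the tested loci within 500 kb of each member against their distance in kb, positive in the member's direction of transcription. Red diamonds are the members, filled circles are loci with an adjusted p under 0.05, open circles are other loci, and the vertical scales differ between panels. Nfkbia at 0.47 stands above all 10 loci around it, and both loci near Tnfaip3 lie above it. The fitted values of loci with almost no fragments in a genotype depend on the model.

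Levels of different genes were compared per length, as CPM per kilobase of the longest protein-coding transcript in GENCODE M21. In WT, Rela led with 46.7 ± 0.783, followed by Nfkbia with 35.5 ± 3.04, Nfkb2 with 34.8 ± 1.41 and Nfkb1 with 28.5 ± 1.05 CPM per kilobase (SD, n = 3). The libraries of Nfkbia and Nfkb2 overlapped, so their order is open. In Yme1l-/-, Nfkb2 led with 61.9 ± 1.33, above all libraries of Rela with 49.3 ± 1.12 CPM per kilobase, and those of Rela and Nfkbia (49.2 ± 5.70) overlapped. Nfkbie moved from 4.35 ± 0.346, level with Rel at 4.195 ± 0.272, to 14.3 ± 0.743 CPM per kilobase, above Nfkbib, Tnfaip3 and Rel. Bcl3 was last in both genotypes, with 1.39 ± 0.294 and 3.46 ± 0.193 CPM per kilobase. The authors' FPKM values, 1 pooled value per genotype, gave 48.3 for Rela and 44.5 for Nfkb2 in WT, and 51.1 and 78.8 in Yme1l-/-. Their order was not the same throughout. In Yme1l-/- they put Nfkbia (64.8) above Rela and Nfkbib (23.2) above Nfkbie (15.04), and in WT they put Nfkbib (15.6) above Relb (14.3) and Tnfaip3 (9.77).

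Ratios of members within a library do not depend on how libraries are scaled, but they do depend on the medians of the chromosomes of both genes. The ratio of Nfkb2 to Nfkb1 per kilobase was 1.23, 1.24 and 1.19 in WT and 2.49, 2.52 and 2.46 in Yme1l-/-. That of Relb to Rela was 0.270, 0.333 and 0.274 in WT and 0.478, 0.425 and 0.466 in Yme1l-/-. Both ratios were thus higher in each Yme1l-/- library than in any WT library, by 2.04-fold and 1.56-fold on the means. The ratio of Nfkbie to Nfkbia went from 0.123 ± 0.0157 to 0.293 ± 0.0265 (SD, n = 3). The ratio of Nfkbia to Rela went from 0.759 ± 0.0663 to 0.999 ± 0.132, and that of Nfkbie to Rela from 0.0933 ± 0.00888 to 0.291 ± 0.0214 (SD, n = 3). The ratio of Nfkbib to Nfkbia overlapped between genotypes, with means of 0.237 and 0.256. Of 7 ratios compared, 6 did not overlap, each with a two-sided exact permutation p of 0.1, the smallest that 3 against 3 libraries can give, and 0.117 after Benjamini-Hochberg adjustment over the 7. The pairs were chosen after values were seen, and the adjustment does not correct for that choice. The exact p for Nfkbib to Nfkbia was 0.5. With chromosome medians removed, an alternative added after the values were seen, the fold of Nfkbie to Nfkbia fell from 2.37 to 1.56, and that of Nfkbib to Nfkbia went from 1.08 to 0.802. The fold of Nfkbia to Rela went from 1.32 to 1.93, and those of Nfkb2 to Nfkb1, Relb to Rela and Nfkbie to Rela were 1.73, 1.70 and 3.01.

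**Figure D4:**
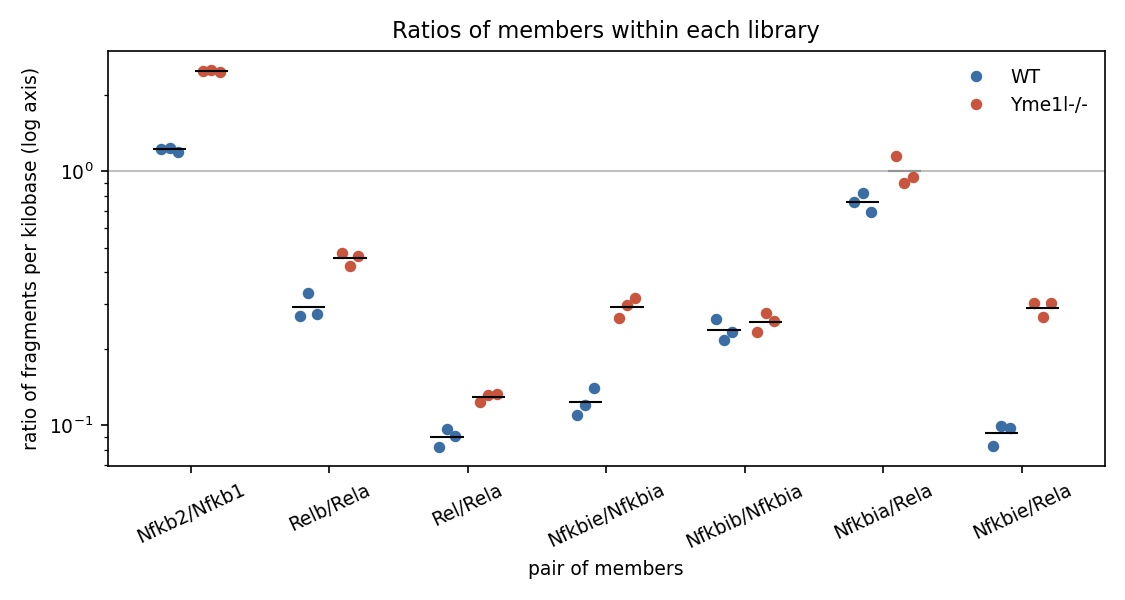
Ratio of fragments per kilobase of pairs of members within each library, on a log axis, in WT (blue) and Yme1l-/- (red), with black lines at the means of 3 libraries. Nfkb2 to Nfkb1 moves from a mean of 1.22 to 2.49, while Nfkbib to Nfkbia overlaps.

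Other genes of the pathway, 96 in all with the target genes, were read from the same fit by role. Of 3 further IkB proteins, 2 were called higher and 1 lower, where 33.6% and 34.1% of all loci were. Nfkbiz, an inducible nuclear IkB protein, rose by 0.23 ± 0.07, and Nfkbil1 by 0.46 ± 0.08 (log2 fold change ± SE). Both were still called with chromosome medians removed, at 0.25 and 0.29. Nfkbid, another nuclear IkB protein, was nearly absent from Yme1l-/-, with 0, 1 and 0 fragments against 23, 24 and 24 in WT. Measured against 3 fragments in the Yme1l-/- library where these weigh most, it was at least 8.41-fold lower (counting error only).

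Among 14 kinases and kinase-associated proteins of the IKK branch, 8 were called higher (57.1%) and 5 lower (35.7%), beside 33.6% and 34.1% of all loci, and the median log2 fold change was 0.28. These counts were 6 and 3 with chromosome medians removed, beside 31.1% and 31.7% of all loci, with a median of 0.11. Map3k14, which encodes NIK, the kinase of the non-canonical branch, rose from 24.2 ± 0.878 to 53.4 ± 0.341 CPM (SD, n = 3), or by 1.14 ± 0.05 on the log2 scale (SE, edgeR adjusted p = 5.4e-09). It lies on chromosome 11 and was called at 0.79 with chromosome medians removed. The 3 genes of the IKK complex itself differed little. Chuk (IKK alpha) was at 0.17 ± 0.05 and called higher, Ikbkb (IKK beta) at -0.20 ± 0.06 and called lower, and Ikbkg (NEMO) at -0.10 ± 0.05 and not called (log2 fold change ± SE). None of these 3 was called with chromosome medians removed, at 0.06, 0.11 and 0.11, where the sign of Ikbkb and Ikbkg was reversed. The interleukin-1 receptor kinases went both ways, with Irak4 at 1.21 ± 0.11 and Irak2 at 1.05 ± 0.10, both higher, and Irak1 at -0.51 ± 0.05 (log2 fold change ± SE), lower. All 3 were still called with chromosome medians removed, at 0.62, 0.71 and -0.30. Map3k7, which encodes TAK1, was lower at -0.29 ± 0.04, and Tab3, one of its adaptors, at -0.29 ± 0.05 (SE). The call for Tab3 was lost at -0.08 with chromosome medians removed.

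Of 15 adaptors and ubiquitin ligases, 14 were tested, 8 called higher (57.1%, beside 33.6% of all loci) and 2 lower (14.3%, beside 34.1%). Sharpin, a subunit of the linear ubiquitin ligase, rose by 1.03 ± 0.06 (log2 fold change ± SE), and was at 0.44 with the high median of chromosome 15 removed. Rnf31, its catalytic subunit, was counted in 1 locus with the interferon signalling gene Irf9, which rose by 0.82 ± 0.05 (SE) and cannot be divided. Mavs, the adaptor of RNA sensors, rose by 0.57 ± 0.06 (SE). The lower calls, Traf3 at -0.15 ± 0.05 and Bcl10 at -0.19 ± 0.05 (SE), were small. Traf3, which keeps NIK low in resting cells, was not called under upper-quartile scaling. It was also not called, at -0.15 to -0.11, when WT sample 2 or 3, or Yme1l-/- sample 1 or 3, was left out. With chromosome medians removed it was called higher, at 0.29, and Bcl10 was not called, at -0.06.

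Of 13 other negative regulators, 7 were called higher (53.8%, beside 33.6% of all loci) and 5 lower (38.5%, beside 34.1%). One of the lower calls is a locus that joins Commd1 with B3gnt2 and 2 predicted genes and cannot be divided. Removal of chromosome medians left 7 higher and 3 lower, with a median of 0.15 in place of 0.42. Zc3h12a, which encodes the mRNA-degrading enzyme Regnase-1, rose by 1.14 ± 0.11, Tnip1, which encodes an A20-binding protein, by 1.02 ± 0.06, and the linear deubiquitinase gene Otulin by 0.79 ± 0.05 (log2 fold change ± SE). With chromosome medians removed they were called at 1.24, 0.67 and 0.20. Itch and Rnf11, partners of A20, were at -0.49 ± 0.05 and -0.37 ± 0.06, and the deubiquitinase gene Cyld at -0.33 ± 0.05 (log2 fold change ± SE), all called lower. The call for Cyld was lost at -0.01 with chromosome medians removed.

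Receptors went both ways. Of 12 receptors, 10 were tested, 6 called higher (60.0%) and 4 lower (40.0%), where 33.6% and 34.1% of all loci were. Tlr3, a sensor of double-stranded RNA, rose from 1.68 ± 0.147 to 9.01 ± 0.708 CPM, and Tlr2 from 2.63 ± 0.716 to 10.9 ± 0.704 CPM (SD, n = 3). Their log2 fold changes were 2.43 ± 0.13 and 2.05 ± 0.16 (SE). Ltbr, the lymphotoxin receptor upstream of NIK, was at 0.60 ± 0.05 (SE) and called higher, also at 0.25 with chromosome medians removed. The lower calls were led by Tlr4 at -1.29 ± 0.11, Tnfrsf1b at -0.63 ± 0.05 and Il1r1 at -0.51 ± 0.07 (log2 fold change ± SE). Of 9 ligands, 3 were tested, 2 of them called higher and 0 lower, beside the same shares of all loci. Il1b had 0 fragments in all 6 libraries, which allows up to 0.0589 to 0.0919 CPM by library, and Tnf had at most 3 fragments in any library. A locus that joins Tnfsf12 with Tnfsf13 and Tnfsfm13 was measured at 9.98 ± 0.398 CPM (SD, n = 3) in WT against 29.3 ± 0.933 CPM in Yme1l-/-. It rose by 1.55 ± 0.07 (log2 fold change ± SE).

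**Figure D5:**
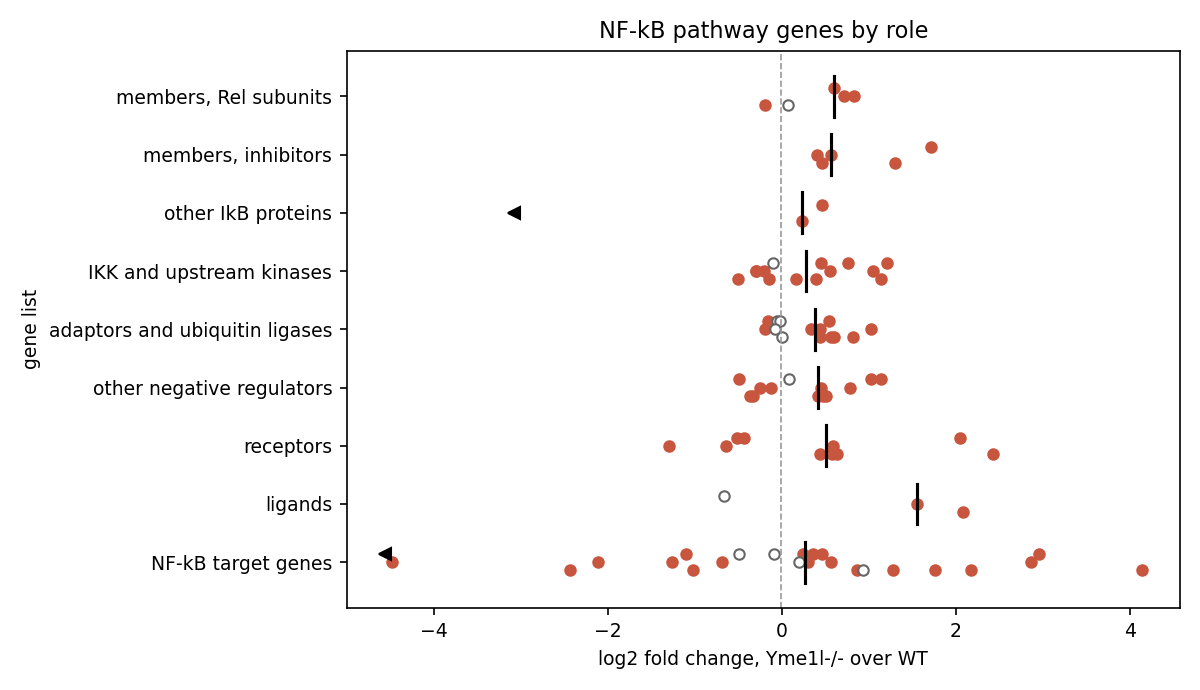
Log2 fold change (Yme1l-/- over WT) of the tested genes of each list, with red circles for calls, open circles for genes not called, black triangles for bounds of genes at the floor in Yme1l-/- and black lines at the list median. The dashed line is the median of all loci. The 5 inhibitors lie between 0.41 and 1.72, while target genes spread to both sides of 0.

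Known NF-kB target genes did not move one way. Of 30 genes in the list, 24 were tested, 12 called higher (33.6% of all loci were) and 8 lower (34.1% of all loci were), with a median log2 fold change of 0.27. The median was 0.14 with chromosome medians removed, with 11 called higher and 8 lower. The chemokine gene Ccl7 rose from 5.71 ± 0.757 to 44.4 ± 0.785 CPM, and Ptx3, which encodes a secreted pattern recognition protein, from 32.3 ± 2.80 to 235.7 ± 14.6 CPM (SD, n = 3). Their log2 fold changes were 2.96 ± 0.08 and 2.87 ± 0.07 (SE). Ccl2, which recruits monocytes, was at 1.76 ± 0.29 (SE, edgeR adjusted p = 0.0047), and its level was 29.97 ± 11.3 CPM (SD, n = 3) in WT against 101.4 ± 7.95 CPM in Yme1l-/-. Ptgs2, which encodes cyclooxygenase-2, was lower, from 338.6 ± 59.3 to 15.2 ± 2.41 CPM (SD, n = 3), or -4.48 ± 0.19 on the log2 scale (SE, edgeR adjusted p = 6.0e-06). Cxcl5 was lower at -2.11 ± 0.33, and Cflar, which encodes the caspase-8 inhibitor c-FLIP, at -1.26 ± 0.07 (log2 fold change ± SE). The list was written from general knowledge, and many of its genes also answer to other factors.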

How the data were processed

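RNA of 6 samples, 3 per genotype, had been sequenced by the authors from poly(A)-selected, stranded libraries. Per the study's methods and the submitters' processing notes, reads were mapped to mm10 (GRCm38) with HISAT2 2.0.4, transcripts were assembled with StringTie 1.3.3, and genotypes were compared with Cuffdiff 2.2.1. The deposited count table holds raw fragment counts per locus, without normalization. How fragments mapping to several places were counted is not given in the sources used here. A second deposited table, of the authors' comparison, gives FPKM pooled per genotype, of which those of 7 members were printed, and chromosomes were taken from it. Its fold changes, p-values and q-values were not used.

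Groups and replicate numbers came from the sample titles, and the count columns carry genotype and number. The test used edgeR 4.0.16 under R 4.3.3 (filterByExpr with a minimum count of 10, TMM factors, glmQLFit with robust estimation, glmQLFTest, two-sided, no covariates). Adjustment (Benjamini-Hochberg) covered the 13867 loci tested, with calls at an adjusted p under 0.05. The test was checked on simulated data in which few loci changed and no chromosome was shifted. That setting does not check it under changes as broad as those seen here. SE is the absolute log2 fold change over the root of the F statistic. Replicate libraries were distinct beyond counting noise (chi-square per degree of freedom at least 8.45) and each counted once. Intervals and floors cover counting error only.

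Gene positions and transcript lengths were taken from GENCODE M21 (GRCm38), and promoter windows from RefSeq (GRCm38.p6). Other pathway genes were named where listed as always named (the IKK genes, Map3k14, Nfkbiz, Nfkbid, Tnf, Il1b), or as up to 3 highest and 3 lowest log2 fold changes per list among calls with at least 5 CPM in the higher genotype and no overlap. The members and lists were chosen with earlier results of these data known. Neighbouring loci, ratios and target genes in the closing section were chosen after values were seen. Alternatives were RLE and upper-quartile scaling, DESeq2 1.42.0, a filter at 1 count in total, a filter at 10 counts in each sample, a replicate block, leaving out each sample, removal of chromosome medians as an offset, and thinning to the smallest library.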

Additional observations from a re-analysis of the deposited data

How the results depend on the processing

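Over 14 alternative fits, the number of loci called ranged from 8513 to 10051, and 8 members were called higher in 12 of them. With upper-quartile scaling 9 were, since Rela was added at 0.14, and with chromosome medians removed 7 were. In the latter fit 0 members were called lower, as Nfkb1 was at -0.08 and not called. Of 140 single values of members, 136 kept their direction and their side of the threshold. With chromosome medians removed, Rela was at -0.039, Ikbkb at 0.11, Ikbkg at 0.11 and Traf3 at 0.29, each with the opposite sign. List medians in that fit were 0.65 for members, 0.25 for further IkB proteins, 0.11 for kinases, 0.45 for adaptors (10 called higher), 0.15 for negative regulators, 0.25 for receptors, 1.20 for ligands and 0.14 for target genes. In that fit the lower calls numbered 3 among kinases, 0 among adaptors and 3 among negative regulators. Lower calls among adaptors numbered 1 under upper-quartile scaling and 1 to 2 when single samples were left out, with Traf3 lost without WT sample 2 or 3 or Yme1l-/- sample 1 or 3. At least 10 counts in every sample left 0 lower calls among further IkB proteins and 1 higher call among ligands, since fewer loci were tested. Lower calls among ligands were 0 to 1 when single samples were left out (1 without WT sample 1). The folds of ratios, with chromosome medians removed, were 1.73 for Nfkb2 to Nfkb1, 1.22 for Rel to Rela, 1.56 for Nfkbie to Nfkbia, 0.802 for Nfkbib to Nfkbia and 1.93 for Nfkbia to Rela, by construction from the chromosomes of both genes.

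Same-numbered samples did not deviate together: the correlations of their deviations from the genotype means were 0.198, -0.158 and 0.0482. Under a replicate block the number of loci called was 9794, with 8 members higher and 1 lower, and no call of a member changed. Removal of chromosome medians was planned with earlier results of these data known. What makes the medians of chromosomes differ was not tested.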

Other observations

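Target genes outside the naming rule, chosen after their values were seen, add to the spread in both directions. The protease genes Mmp9 and Mmp3 went opposite ways. Mmp9 was at 0.203 CPM in WT and 3.64 CPM in Yme1l-/- and rose by 4.14 ± 0.30 on the log2 scale (SE). WT held 5, 12 and 3 fragments of Mmp9, and without WT sample 2 the value was 4.86. Mmp3 had 42, 78 and 79 fragments in WT and 0, 3 and 1 in Yme1l-/-, at least 23.6-fold lower. Icam1, an adhesion molecule, was low in both genotypes, at 0.640 and 0.111 CPM, and was called lower at -2.43 ± 0.44. It had 2, 4 and 10 fragments in Yme1l-/-, and its value was -3.13 without Yme1l-/- sample 3 and -3.17 after thinning. Vcam1 was called higher at 0.30 ± 0.06 (log2 fold change ± SE). The survival gene Bcl2l1 was lower at -1.02 ± 0.05, and the stress gene Gadd45b was higher at 0.86 ± 0.14 (log2 fold change ± SE).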
